A study of Homo sapiens with 10 samples.

Results

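The genes described here are the forkhead (FOX) and SOX transcription factor genes of human embryonic stem cells. They were chosen by symbol: every gene of the authors' deposited table named FOX with a letter from A to S and a number, or SOX with a number, leaving out FOXH1. That gave 60 of 32152 genes, of which 42 are forkhead and 18 are SOX genes. The cells were H9 (WAe009-A), an established embryonic stem cell line. In all, 5 libraries of polyA RNA came from wild-type (WT) cells and 5 from cells labelled as a knockout of KCNH2, the gene of the potassium channel subunit hERG1. Per the labels, WT cells were kept in TeSR-E8 and the edited cells in mTeSR plus, both on Matrigel and undifferentiated, so the effects of medium and genotype cannot be told apart. The genotype field calls the edited cells a knockdown, the titles a knockout, and the sources used here do not say whether they are 1 clone. Nothing in the labels says that replicates were separate cultures, so a p-value here speaks only of the spread among these 10 libraries, which may be technical.

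Forkhead proteins bind DNA through a winged-helix domain, and several of them, above all the FOXA group, can open closed chromatin at the start of a lineage. FOXO proteins pass on insulin and stress signals, and FOXM1 drives mitotic genes. SOX proteins bind through an HMG box that bends DNA, and usually act with a partner factor. SOX2 with POU5F1 (OCT4) maintains pluripotency, its close relative SOX3 is a factor of neural progenitors, and other groups act in neural crest, cartilage, endothelium and endoderm.

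The WT libraries totalled 28615751 to 47319933 counts, the knockout libraries 29788732 to 40587206. Levels are given as CPM, counts per 1000000 after TMM scaling of library size. KCNH2 mRNA stood at 15.5 ± 0.75 CPM (SD, n = 5) in WT and 12.2 ± 1.001 CPM in the edited cells, so it was still there, and counts over the whole gene do not check the loss of the protein. Errors below are likewise SDs over 5 libraries. Knockout replicate 3 stood apart on the second principal component of log2 CPM (-59.1, against -2.3 to 13.9 in the other knockout libraries), with WT replicates 3 (-32.2) and 2 (-10.1) on the same side. All 10 pluripotency markers checked, POU5F1 and NANOG among them, were above 1 CPM in both groups, and their summed level was 5706 to 6021 CPM in WT and 6560 to 7024 CPM in the knockout. PAX6, TFAP2A, GATA6, EOMES and HNF4A, 1 marker each of several other cell types, averaged under 0.2 CPM in both groups, but other markers were present. The primitive streak and mesoderm markers TBX6 (4.206 CPM in WT, 4.195 CPM in the knockout) and MIXL1 (1.226 and 1.223 CPM) were above 1 CPM and not called. Of 8 trophoblast and amnion markers 7 were found, and they summed to 28.8 to 36.2 CPM in WT and 11.2 to 14.8 CPM in the knockout, where GABRP (22.7 ± 2.44 to 6.62 ± 0.42 CPM) and KRT7 (9.03 ± 0.55 to 5.86 ± 1.63 CPM) fell. Their part in the results below was not tested.

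Of the 60 genes, 32 averaged at least 1 CPM in the knockout and 32 in WT, and 30 did so in both. FOXA2 and FOXN4 passed 1 CPM in WT alone, and SOX7 and SOX15 in the knockout alone. The other 26 were below 1 CPM in both groups. A filter on low counts left 40 for testing, 26 forkhead and 14 SOX genes.

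To compare genes with each other, levels were divided by transcript length. SOX2 stood first, at a mean of 113.9 CPM per kilobase over the 10 libraries (99.7 to 126.8). SOX4, a gene of neural and many other progenitors, followed at 53.7 (48.7 to 61.7). SOX12 (31.1 to 39.5) and SOX13 (30.3 to 33.9) overlapped in their ranges, and SOX3 lay below both at 18.3 to 25.9 CPM per kilobase. Among the forkhead genes, FOXM1 (43.7 to 51.3) and FOXN3 (44.0 to 51.2) led, and their ranges could not be separated. FOXK2, a regulator of metabolism and autophagy genes, held 14.1 to 16.6 CPM per kilobase. FOXD3, a factor of pluripotent and neural crest cells, held 11.2 to 14.1, and FOXA3, a liver and gut relative of FOXA2, 9.21 to 12.95, so that these neighbours overlapped. The 60 genes together took 0.174 to 0.182% of all counts in WT and 0.164 to 0.169% in the knockout.

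**Figure D1:**
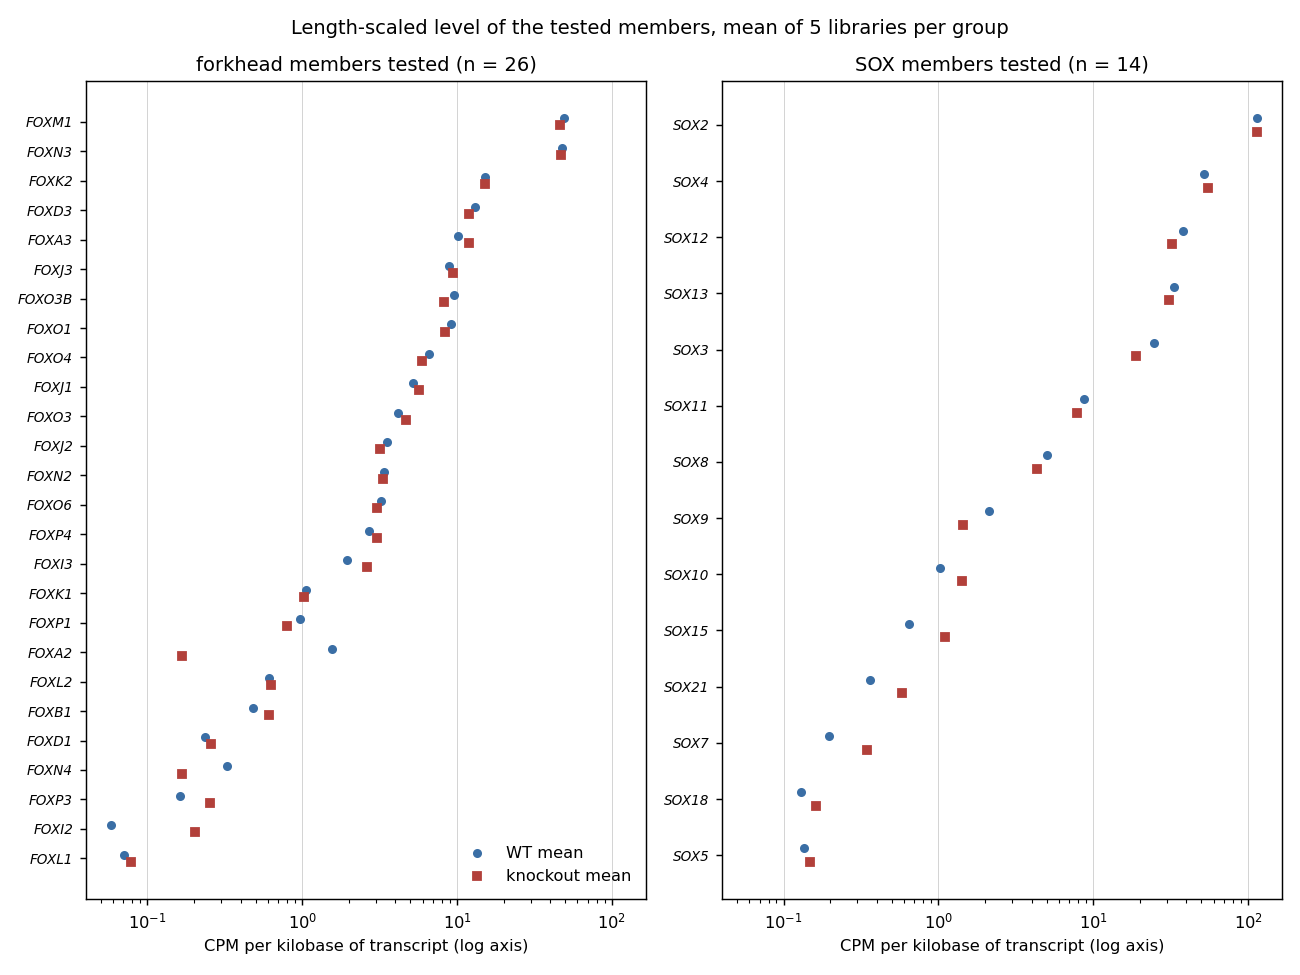
Length-scaled level of the 26 tested forkhead genes (left) and 14 tested SOX genes (right), as mean CPM per kilobase of transcript on a log axis. Blue circles are means of 5 WT libraries and red squares of 5 knockout libraries. SOX2 leads at 114.3 in WT and 113.5 in the knockout, and FOXA2 shows the widest gap between the groups.

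In the knockout, 6 of the 40 tested genes rose and 12 fell at an adjusted p under 0.05 (edgeR quasi-likelihood test, adjusted over 19163 genes). The rises were FOXA3, FOXI2, FOXI3, SOX7, SOX10 and SOX15. The falls were FOXA2, FOXJ2, FOXN4, FOXO1, FOXO3B, FOXP1, SOX3, SOX8, SOX9, SOX11, SOX12 and SOX13. Over all tested genes the test called 46.0%, with 21.9% higher and 24.1% lower, so the 18 of 40 called here is a share like that of all genes. The median log2 fold change was -0.004 over the 40 and 0.002 over all tested genes. The 5 knockout and 5 WT libraries did not overlap for 14 of the 40, against 34.0% of all tested genes. A change of more than 0.5 on the log2 scale was called for 6 of the 40, against 11.8% of all tested genes. With a correction of every library for transcript length and GC content, 12 rose and 8 fell, and 13 of the 18 calls were kept. Without knockout 3 alone, 10 rose and 13 fell. Without both libraries numbered 3, 8 rose and 12 fell. Without knockout 3, WT 2 and WT 3, 7 rose and 9 fell. Shares over all genes under these and the other alternatives are not given here. Whether the shifts are shared by all genes therefore cannot be read from these counts.

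**Figure D2:**
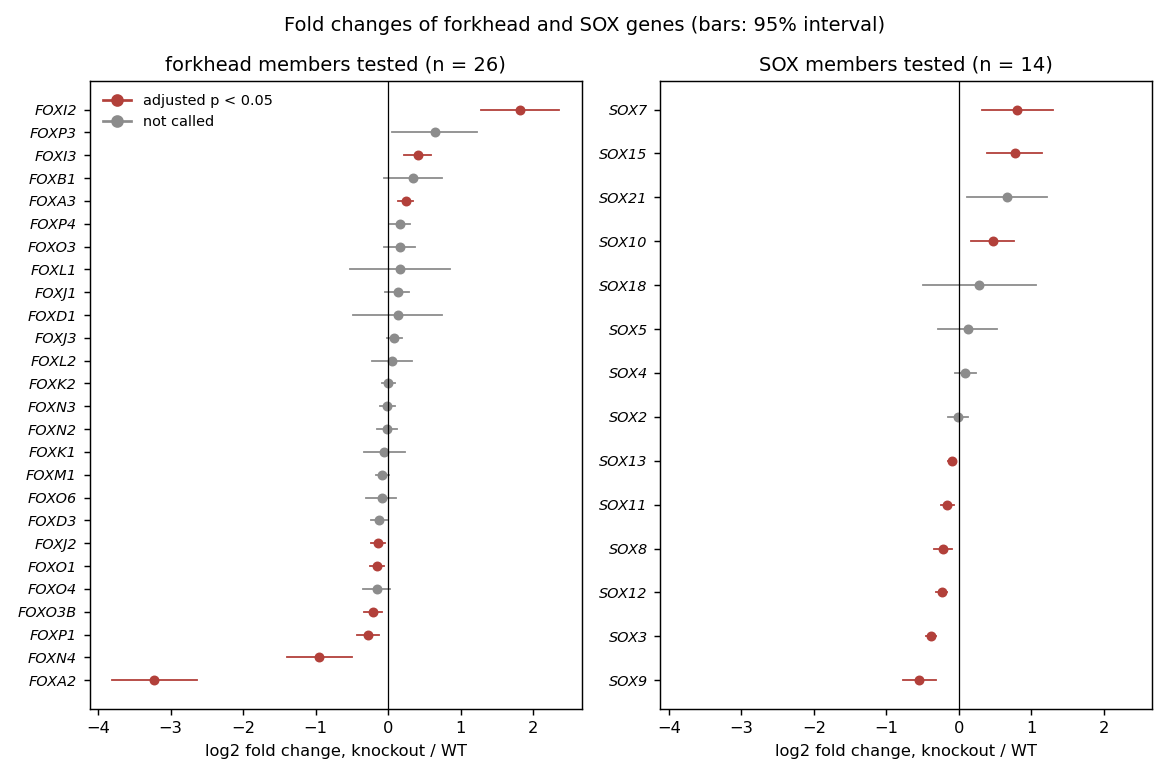
Log2 fold change of knockout over WT (horizontal axis) for the 26 tested forkhead genes (left) and 14 tested SOX genes (right), with 95% intervals from the edgeR fit. Red marks an adjusted p under 0.05 and grey the rest. FOXA2 at -3.23 and FOXI2 at 1.82 lie outside the range of the other genes.

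FOXA2 had the largest fall of the 40. It encodes a pioneer factor of definitive endoderm, liver and the floor plate of the neural tube, and it lies on chromosome 20 (22581005 to 22585455, minus strand, GRCh38) with 3 exons. In WT, replicates 1 to 5 held 2.35, 4.22, 3.38, 5.15 and 3.54 CPM. The knockout replicates held 0.57, 0.56, 0.28, 0.28 and 0.31 CPM. Every knockout library lay below every WT library, and replicates 1 and 2 were the highest of the knockout. That is 731 counts in WT against 69 in the knockout, a log2 fold change of -3.23 (SE 0.27, adjusted p = 2.91e-06), or 9.36-fold lower. The authors' deposited table gives FOXA2 a smaller log2 fold change, -2.14, while the alternative fits here, DESeq2 among them, gave -3.38 to -3.08. The deposited value was also smaller in size for FOXI2 (1.0 against 1.82 here) and FOXN4 (-0.65 against -0.95), and close for SOX3 (-0.37 against -0.39). How the deposited estimate was computed is not given in enough detail here to compare the 2 measures. In bulk RNA, fewer cells with FOXA2 and less FOXA2 RNA per cell cannot be told apart.

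The other marker genes of the cell types that use FOXA2 stayed low. Of 7 definitive endoderm markers 6 were found, and the 5 other than FOXA2 summed to 2.62 to 2.91 CPM in WT and 2.08 to 4.43 CPM in the knockout. GATA4 and GATA6 each averaged under 0.2 CPM in both groups. The floor plate and notochord markers SHH, TBXT and NOTO together summed to 0.43 to 0.72 CPM in WT and 0.39 to 0.78 CPM in the knockout. The noncoding RNA gene LINC00261, which neighbours FOXA2, had 29 counts over the 5 WT libraries (0.06 to 0.29 CPM). In the knockout 4 libraries had 0 counts and replicate 2 had 2, and the gene was too low for the test. A list of 25 genes of the endoderm programme of FOXA2 and SOX17 (SOX17 itself is not analysed here) had 12 tested genes, of which 3 rose and 2 fell, and their median log2 fold change was 0.06. The counts of this and the other lists stand beside the 21.9% of all tested genes called higher and 24.1% called lower, and nothing particular to a list is read from them. KITLG, the ligand of the receptor KIT, rose from 7.51 ± 0.56 to 11.4 ± 1.33 CPM, and PRDM1, a transcriptional repressor active in germ cells and endoderm, by 1.56. CER1, a NODAL and BMP antagonist, rose by 0.91, with knockout 1 at 0.84 CPM inside the WT range. The rise of CER1 was lost without both libraries numbered 3 (adjusted p = 0.0814). NTN1, a floor plate guidance cue, fell by 0.42. CXCR4, a chemokine receptor, fell by 0.36, a call lost without knockout 1 (adjusted p = 0.0717), 2 (0.0761) or 3 (0.0637), without WT 3 (0.0891), 4 (0.0589) or 5 (0.0659), and with DESeq2 (0.144).

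FOXA3, the relative of FOXA2, moved the other way. Its knockout libraries held 24.4, 25.8, 23.7, 22.7 and 23.0 CPM and its WT libraries 18.3, 20.3, 20.9, 21.1 and 20.1 CPM, without overlap. The rise was 0.25 (SE 0.05, adjusted p = 0.00148). FOXA1 was close to silent, with 10 counts over the WT libraries and 13 over the knockout libraries. Per transcript length, FOXA2 took 13.1 ± 2.75% of the FOXA group in WT and 1.35 ± 0.44% in the knockout, and FOXA3 86.7 ± 2.76% and 98.4 ± 0.51%. The summed FOXA level was 11.7 ± 0.94 CPM per kilobase in WT and 12.2 ± 0.67 in the knockout.

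**Figure D3:**
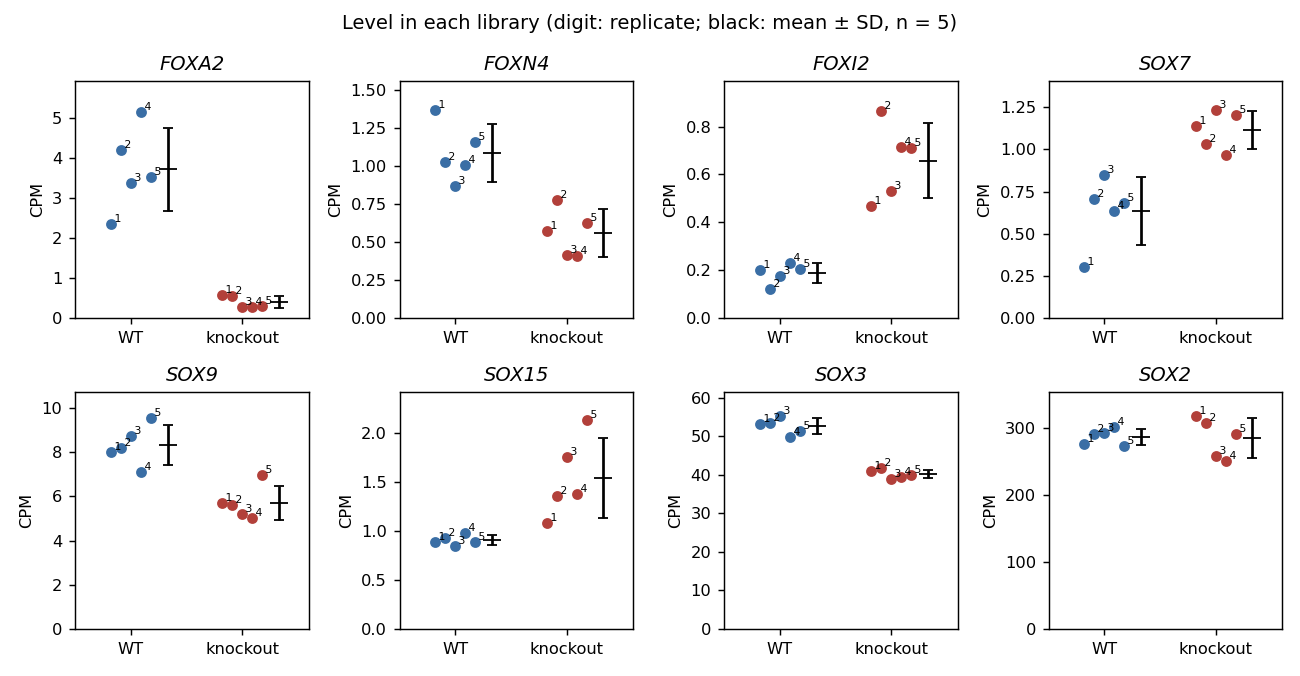
CPM in each library (vertical axis from 0) for the 6 called genes past 0.5 on the log2 scale and for SOX3 and SOX2. Digits give the replicate, and black bars the mean and SD of 5 libraries. WT (blue) and knockout (red) libraries do not overlap for the first 7 genes. They overlap for SOX2.

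FOXI2 had the largest rise, at a low level. This gene of the FOXI group (chromosome 10, 127737235 to 127741186) held 0.20, 0.12, 0.18, 0.23 and 0.20 CPM in WT. In the knockout it held 0.47, 0.86, 0.53, 0.71 and 0.71 CPM. The groups did not overlap, on 36 counts in WT and 117 in the knockout (log2 fold change 1.82, SE 0.24, adjusted p = 1.02e-04). FOXI3, a factor of the ear and other ectodermal placodes, rose from 5.50 ± 0.39 to 7.30 ± 0.79 CPM, a change of 0.41 (SE 0.09, adjusted p = 0.00214).

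FOXN4, a factor of retinal and spinal interneuron progenitors (chromosome 12, 109277979 to 109309220), fell by 0.95 (SE 0.21, adjusted p = 0.00257). Its WT libraries held 1.37, 1.03, 0.87, 1.01 and 1.16 CPM and its knockout libraries 0.57, 0.78, 0.42, 0.41 and 0.63 CPM. The groups were separate, though the highest knockout value was close to the lowest WT value. FOXN2 (18.3 ± 1.21 CPM in WT, 18.02 ± 1.43 in the knockout) and FOXN3, a checkpoint-linked repressor (127.5 ± 4.68 and 126.4 ± 9.09 CPM), were not called. The 95% interval of the log2 change of FOXN3 was -0.11 to 0.09.

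In the FOXO group, the sensors of insulin and stress signals, small falls were called for FOXO1 and FOXO3B. FOXO1 went from 52.8 ± 1.90 CPM in WT to 47.8 ± 3.22 CPM (log2 fold change -0.15, SE 0.05, adjusted p = 0.0217), and its libraries overlapped, with knockout replicate 1 at 52.1 CPM inside the WT range. This call was lost without knockout 5 (adjusted p = 0.0548), without WT 2 (0.0553), without WT 4 (0.0515) without both libraries numbered 3 (0.063), and without knockout 3, WT 2 and WT 3 (0.135). After the correction for length and GC, FOXO1 stood at -0.02 (adjusted p = 0.703). FOXO3B, annotated as a processed pseudogene, fell by 0.21, from 18.4 ± 1.31 to 15.9 ± 0.70 CPM (adjusted p = 0.00698), while FOXO3 stood at 0.16 (adjusted p = 0.186) and, after the correction, at 0.34 (adjusted p = 0.0102). The FOXO3B transcript of 1928 bases aligns over its whole length to FOXO3 at 99.1% identity, so reads of the pair can be misassigned and both values are uncertain. FOXO4 and FOXO6 were not called (log2 fold changes -0.16 and -0.09). Without knockout 1, FOXO4 passed at -0.21 (adjusted p = 0.0222).

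Targets of FOXO proteins were taken from a list of 30. Among 24 that could be tested, 9 rose, 1 fell and the median log2 fold change was 0.10. CAT, the gene of catalase, had 1 count over the WT libraries and 2022 over the knockout libraries. BBC3, which encodes the death-promoting PUMA, rose by 1.08, SESN1, a stress-induced regulator of mTORC1, by 0.71 and BCL2L11, which encodes the pro-apoptotic BIM, by 0.31. SESN3, of the same family, was the 1 that fell, from 46.2 ± 2.73 to 36.6 ± 2.59 CPM. A fall of CITED2 was called too without knockout 1, knockout 2 or WT 1, which made 2. The rise of KLF6, 1 of the 9, was lost without knockout 3 (adjusted p = 0.0745), 4 (0.0975) or 5 (0.054). It was also lost without any 1 of the WT libraries (0.056 to 0.0852) and with DESeq2 (0.0519). INSR, not called, passed as higher without knockout 1 (0.0177) or WT 5 (0.0245) and with DESeq2 (0.0413). BBC3, SESN1, CDKN1A and GADD45A are known targets of p53 too, so they are shared with another pathway.

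FOXP1, which pluripotent cells splice into a form of their own, fell by 0.28 (SE 0.07, adjusted p = 0.00653), from 8.76 ± 0.62 to 7.23 ± 0.52 CPM. Knockout replicate 1, at 8.0 CPM, lay above WT replicate 1 at 7.82 CPM, and the other knockout libraries lay below all of WT. The call was lost without knockout 3, WT 2 and WT 3 (adjusted p = 0.0541) and after the correction for length and GC (-0.14, adjusted p = 0.117). FOXP4, a factor of lung and gut development, was not called (17.9 ± 1.89 CPM against 16.05 ± 0.37 CPM in WT, adjusted p = 0.0634). It passed without knockout 1 (adjusted p = 0.0483) or knockout 3 (0.0178), with DESeq2 (0.0437) and after the correction for length and GC (0.00207). FOXP3, the factor of regulatory T cells, averaged 0.39 CPM in WT and 0.60 CPM in the knockout. It was not called (adjusted p = 0.0734) but passed without knockout 3 (0.0283) and with replicate number as a block (0.0388). CCDC22, which overlaps FOXP3 on the opposite strand, stood at 12.7 CPM in WT and 12.4 CPM in the knockout. Without a known strand setting, reads of CCDC22 may be counted in FOXP3. FOXP2, a gene linked to speech, had 15 counts over WT and 12 over the knockout.

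FOXM1, the activator of mitotic genes, measured 171.3 ± 7.96 CPM in WT and 161.7 ± 7.91 CPM in the knockout and was not called (log2 fold change -0.08, interval -0.17 to 0.01, adjusted p = 0.116). It passed without knockout 2 (-0.11, adjusted p = 0.0483) or without WT 1 (-0.11, 0.04). Of 25 tested FOXM1 targets, 11 rose and 5 fell, by small amounts. CCNB1, the mitotic cyclin B1, rose from 248.4 ± 4.54 to 277.7 ± 8.78 CPM, KIF20A by 0.30 and CCNB2 by 0.17, and CENPE, a kinetochore motor, fell by 0.22. After the correction for length and GC, 5 rose and 2 fell, and the calls of CCNB2 (0.06, adjusted p = 0.154) and CENPE (-0.09, 0.0843) were lost. Leaving out single libraries changed the counts too. Without knockout 5, for example, the calls of CENPA (adjusted p = 0.0716), KIF2C (0.0708), HMMR (0.0709) and TOP2A (0.0595) were lost. RHNO1 and ITFG2, which overlap FOXM1 on the opposite strand, rose by 0.20 and 0.27, and the sources used here give no strand setting for the counting.

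FOXJ1, the master regulator of motile cilia, was present at 13.7 ± 0.59 CPM in WT and 14.98 ± 1.76 CPM in the knockout (adjusted p = 0.193). Its knockout libraries split, with 12.6 and 13.7 CPM in replicates 1 and 2 and 16.0, 16.1 and 16.6 CPM in replicates 3, 4 and 5, and it passed without knockout 1 (0.20, adjusted p = 0.0252). A list of 30 genes of the motile cilium programme had 15 tested genes, of which 3 rose and 6 fell, and their median log2 fold change was -0.21. The list also holds the transcription factors FOXN4, described above, and RFX2, and both are among the 6 that fell. The axonemal dynein genes DNAH5 (3.04 ± 0.49 to 1.87 ± 0.25 CPM) and DNAH9 (by 1.05) fell, as did RFX2, a ciliary transcription factor, by 0.77, and the tubulin gene TUBB4B rose by 0.18. The fall of DNAH11 was lost without knockout 4 (adjusted p = 0.0671) or WT 2 (0.0566), 4 (0.0625) or 5 (0.0578). It was also lost after the correction for length and GC (0.313). The defining ciliated markers DNAI1 and RSPH1 averaged under 0.4 CPM in both groups. FOXJ2 fell by 0.14 (adjusted p = 0.0279), a call lost without knockout 1 (adjusted p = 0.0978), knockout 5 (0.0643), WT 1 (0.0513), WT 3 (0.0685) or WT 5 (0.0558), with DESeq2 (0.0788), with no filter on low counts (0.0591) and with replicate number as a block (0.0536). After the correction for length and GC, it stood at 0.01. FOXJ3 was at 0.08 and was not called, but passed at 0.16 after that correction (adjusted p = 0.00908).

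Of the remaining forkhead genes tested, FOXK1, FOXK2, FOXD1, FOXD3, FOXB1, FOXL1 and FOXL2 were not called, with log2 fold changes from -0.13 to 0.34. FOXK2 held 80.2 ± 2.77 CPM in WT and 80.4 ± 5.24 CPM in the knockout, and after the correction for length and GC it passed at 0.14 (adjusted p = 0.0162). WDR45B, which overlaps FOXK2 on the opposite strand, rose by 0.21, from 113 to 130 CPM. Without a strand setting, reads of WDR45B may be counted in FOXK2. FOXD3 stood at 27.4 ± 1.65 CPM in WT and 25.1 ± 1.22 CPM in the knockout (adjusted p = 0.0502). It passed without knockout 3 (-0.15, adjusted p = 0.0297), WT 1 (0.0491) or WT 5 (0.0421), and after that correction (-0.17, 0.00852). FOXD3-AS1, which overlaps FOXD3 on the opposite strand, rose from 64.4 ± 5.08 to 73.2 ± 5.42 CPM (adjusted p = 0.0278), and stood at 0.03 after the correction (adjusted p = 0.748). That rise was also lost without knockout 2 (0.065), knockout 5 (0.0607), WT 2 (0.0653), WT 3 (0.065) or WT 5 (0.0619). Without a strand setting, reads of FOXD3 and FOXD3-AS1 cannot be told apart where they overlap. Of 32 antisense or adjacent noncoding genes of the families that were looked for, 7 were tested, and FOXD3-AS1 was the 1 higher and SOX9-AS1 the 1 lower. FOXB1, a factor of the hypothalamus and brainstem, passed without knockout 3 (0.45, adjusted p = 0.046).

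SOX2, the core pluripotency factor, was not called. Its knockout libraries held 319, 308, 258, 251 and 291 CPM and its WT libraries 276, 292, 293, 301 and 273 CPM. The highest and the lowest libraries were both from the knockout, on either side of the WT range. The log2 fold change was -0.01 with a 95% interval of -0.15 to 0.13 (adjusted p = 0.916). SOX2-OT, the noncoding gene within which SOX2 lies, stood at 2.74 and 2.73 CPM.

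SOX3, the other expressed gene of the B1 group, fell. It held 53.1, 53.4, 55.1, 49.8 and 51.3 CPM in WT and 41.0, 41.6, 39.0, 39.5 and 40.0 CPM in the knockout. The groups were well apart and each was narrow, so a change of -0.39 (SE 0.03) reached an adjusted p of 4.81e-06. Per transcript length, SOX3 took 17.8 ± 0.86% of the B1 group in WT and 14.3 ± 1.03% in the knockout. SOX1, the other B1 gene, was close to silent, with 11 counts over WT and 12 over the knockout. Among neural markers, DCX (8.27 ± 0.28 to 5.18 ± 1.21 CPM) and TUBB3 (87.9 ± 5.72 to 73.4 ± 6.47 CPM) fell too, while PAX6, SOX1, NEUROG2 and HES5 each averaged under 0.2 CPM in both groups, HES5 with 0 counts in the knockout. The 5 neural markers that are no SOX genes summed to 87.95 to 102.1 CPM in WT and 69.6 to 86.1 CPM in the knockout, mostly TUBB3, and their part in the fall of SOX3 was not tested.

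The 250 bases before the start of 3 genes are shown because these genes differ in response: SOX2 was not called, and SOX3 and SOX12 fell. They come from RefSeq (GRCh38.p14), which lists 57 starts for 41 of the 60 genes, and are written 5′ to 3′ on the gene's strand.
SOX2, chr3:181711675-181711924, plus strand: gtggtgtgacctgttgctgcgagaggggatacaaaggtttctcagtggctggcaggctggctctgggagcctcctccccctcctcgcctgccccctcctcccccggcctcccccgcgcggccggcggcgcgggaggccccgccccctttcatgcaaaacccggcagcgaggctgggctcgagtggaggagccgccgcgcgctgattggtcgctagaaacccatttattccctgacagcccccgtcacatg
SOX3, chrX:140505070-140505319, minus strand: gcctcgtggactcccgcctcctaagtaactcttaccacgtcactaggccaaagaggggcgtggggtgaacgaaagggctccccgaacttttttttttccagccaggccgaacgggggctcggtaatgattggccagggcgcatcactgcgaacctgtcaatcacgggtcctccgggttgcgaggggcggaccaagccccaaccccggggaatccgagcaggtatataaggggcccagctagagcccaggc
SOX12, chr20:325302-325551, plus strand: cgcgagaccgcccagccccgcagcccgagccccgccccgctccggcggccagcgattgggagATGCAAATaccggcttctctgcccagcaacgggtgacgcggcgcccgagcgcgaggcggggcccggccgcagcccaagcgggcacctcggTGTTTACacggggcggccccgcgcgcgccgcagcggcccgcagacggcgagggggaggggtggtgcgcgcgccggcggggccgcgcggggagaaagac

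Capitals mark matches to 3 motifs searched on both strands. The forkhead core was TGTTTAC or GTAAACA, the SOX core ACAATG or CATTGT, and the octamer of POU factors such as POU5F1 was ATGCAAAT or ATTTGCAT, which was added after the sequences had been seen. In SOX12, the octamer starts at base 63 and the forkhead core at base 153, counted from the 5′ end. Neither the SOX2 nor the SOX3 window holds any of these letters. Over 35116 RefSeq windows of this length, 2.98% hold the forkhead core, 9.29% the SOX core and 1.63% the octamer. Among the 57 windows of the genes described here, 3 hold the forkhead core, 8 the SOX core and 1 the octamer. Whether a motif goes with a response was not tested. CG dinucleotides number 20 in the SOX2 window, 17 in SOX3 and 42 in SOX12. The median is 11 over all windows and 20 over the 57 windows of the genes described here, so only SOX12 lies above both. A match is a string of letters and shows no binding.

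In the C group, factors of neuronal and other progenitors, SOX12 and SOX11 fell and SOX4 was not called. SOX12 held 169, 183, 181, 178 and 174 CPM in WT and 154, 160.2, 148, 144 and 147 CPM in the knockout. Its groups did not overlap (log2 fold change -0.23, SE 0.03, adjusted p = 1.97e-04), and it stood at -0.13 after the correction for length and GC, still past the threshold. SOX11 went from 76.6 ± 2.18 to 68.7 ± 3.91 CPM (-0.16, adjusted p = 0.00616). Its transcript is 8719 bases long, and after that correction it stood at 0.03 (adjusted p = 0.622). SOX4 stood at 304.0 ± 10.7 CPM in WT and 324.0 ± 35.7 CPM in the knockout (0.09, interval -0.05 to 0.23, adjusted p = 0.274), and passed at 0.24 after that correction (adjusted p = 0.00805). NRSN2-AS1, which overlaps SOX12 on the opposite strand, fell by 0.28.

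In the E group, which acts in neural crest, glia and cartilage, SOX9 and SOX8 fell and SOX10 rose. SOX9 (chromosome 17, 72121020 to 72126420) held 8.02, 8.18, 8.72, 7.09 and 9.53 CPM in WT and 5.71, 5.59, 5.19, 5.02 and 6.95 CPM in the knockout. The groups did not overlap, though knockout 5 came close to WT 4 (log2 fold change -0.55, SE 0.10, adjusted p = 9.92e-04). SOX9-AS1, transcribed from the opposite strand, fell from 0.96 ± 0.14 to 0.35 ± 0.20 CPM (adjusted p = 0.00143). SOX8 fell by 0.22 (adjusted p = 0.00889), from 15.45 ± 0.59 to 13.2 ± 1.155 CPM, with knockout 3 at 15.2 CPM inside the WT range.

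SOX10 held 3.21, 2.83, 3.23, 2.32 and 3.13 CPM in WT and 3.70, 3.98, 3.46, 3.87 and 5.33 CPM in the knockout. It rose by 0.47 (SE 0.13, adjusted p = 0.0132), without overlap. POLR2F, a subunit gene of the RNA polymerases, overlaps SOX10 on the opposite strand at 60.5 CPM in WT and 82.9 CPM in the knockout, and it rose by 0.46 (adjusted p = 1.65e-05). Without a strand setting, reads of SOX10 and POLR2F cannot be told apart where they overlap. Of the other neural crest markers, NGFR fell from 26.5 ± 1.76 to 17.7 ± 0.37 CPM and PAX7 by 1.06, TFAP2A and PAX3 averaged under 0.2 CPM, and the 4 that are no SOX or forkhead genes summed to 24.3 to 28.3 CPM in WT and 17.6 to 18.5 CPM in the knockout. The part of neural crest-like cells in these changes was not tested.

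Cartilage genes that SOX9 activates with SOX5 and SOX6 were compared from a list of 16 that includes those 3. Among the 13 tested, 6 fell, 1 rose and the median log2 fold change was -0.18. COL2A1, the main cartilage collagen gene, fell from 29.4 ± 1.42 to 24.5 ± 1.12 CPM, COL9A1 from 43.5 ± 2.20 to 31.4 ± 4.04 CPM and COL9A2 by 0.43. SOX9 is itself 1 of the 6. COL11A2 is another, and its call was lost without knockout 1 (adjusted p = 0.0556), 3 (0.0668), 4 (0.0776) or 5 (0.0692). It was also lost without WT 1 (0.0698), 2 (0.06) or 4 (0.0622), and after the correction for length and GC (0.215). Fibroblast collagen genes fell as well, COL1A1 from 102.7 ± 1.62 to 71.6 ± 5.19 CPM and COL1A2 from 136.0 ± 3.49 to 81.7 ± 11.9 CPM, while COL3A1 had 0 counts in WT and 4 in the knockout. The 5 fibroblast markers found, of 7, summed to 930.0 to 1005 CPM in WT and 809.4 to 935.5 CPM in the knockout, most of it THY1, which was not called, and their part in the fall of the cartilage genes was not tested. The single rise, of CNMD (0.22, adjusted p = 0.0479), was lost without knockout 1 (adjusted p = 0.071), 2 (0.0932) or 5 (0.0918), or without WT 1 (0.0856), 2 (0.0944), 3 (0.0895) or 5 (0.104). SOX5 stayed near 0.6 CPM in both groups and was not called, and SOX6 had 16 counts over WT and 10 over the knockout.

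SOX13, of the D group, fell by 0.09 (SE 0.03, adjusted p = 0.00999), from 119.0 ± 1.67 to 111.5 ± 3.21 CPM. The groups did not overlap, but WT 1 at 117.4 CPM was close to knockout 2 at 116.6 CPM. The call was lost without knockout 3, WT 2 and WT 3 (adjusted p = 0.12) and after the correction for length and GC (-0.03, adjusted p = 0.361).

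SOX7 and SOX15 rose from below to above 1 CPM. SOX7, which acts with SOX17 and SOX18 in endothelium and early endoderm, held 0.30, 0.70, 0.845, 0.64 and 0.68 CPM in WT and 1.14, 1.03, 1.23, 0.97 and 1.2 CPM in the knockout. The groups did not overlap, on 126 counts over WT and 195 over the knockout (log2 fold change 0.80, SE 0.22, adjusted p = 0.0108). PINX1, which overlaps it on the same strand, stood at 0.38 CPM in WT and 0.28 CPM in the knockout. SOX18 averaged 0.24 and 0.30 CPM in the same order and was not called. Of the endothelial markers, KDR and TEK rose by 0.11 and 0.57, CDH5 fell by 0.99 and PECAM1 averaged 0.30 CPM in WT and 0.07 CPM in the knockout. The 4 without SOX7 and SOX18 summed to 70.6 to 75.2 CPM in WT and 80.7 to 83.0 CPM in the knockout, most of it KDR, and their part in the rise of SOX7 was not tested.

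SOX15, the only gene of the G group, is expressed in embryonic stem cells and muscle precursors. Its WT libraries were narrow, at 0.89, 0.93, 0.845, 0.98 and 0.89 CPM, and its knockout libraries spread over 1.08, 1.36, 1.76, 1.38 and 2.14 CPM. The rise was 0.77 (SE 0.18, adjusted p = 0.00379). MPDU1, on the opposite strand over part of SOX15, rose by 0.20 from 45.7 to 52.4 CPM, and without a strand setting its reads may be counted in SOX15. SOX21, a B2 factor that counters SOX2, averaged 1.01 CPM in WT and 1.62 CPM in the knockout. It just missed the threshold (0.66, adjusted p = 0.0511) and passed without knockout 3 (adjusted p = 0.0303) or knockout 4 (0.0135), with DESeq2 (0.0374) and after the correction for length and GC (0.0431).

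Of genes that SOX2 and POU5F1 bind together, 22 from a list of 24 were tested: 7 rose, 5 fell and the median log2 fold change was 0.08, beside 21.9% higher and 24.1% lower over all tested genes. POU3F1, which partners SOX proteins in neural cells, fell from 83.2 ± 1.59 to 46.0 ± 2.46 CPM (adjusted p = 1.42e-08). PHC1, a Polycomb gene, and ZIC2, a factor of neural and pluripotent cells, fell by 0.22 and 0.19, and POU5F1 rose by 0.30. The calls of L1TD1 (higher) and LIN28B (lower) were lost with replicate number as a block (adjusted p = 0.0662 and 0.0757) and under other alternatives. After the correction for length and GC, the call of UTF1 was lost (adjusted p = 0.108), and JARID2, NES, DNMT3B and TRIM71 passed as higher.

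Of the 22 tested genes at 10 CPM or more in either group, 18 had a larger SD of log2 CPM in the knockout, against 69.9% of the 10735 tested genes at that level. FOXO3 held 29.5, 28.4, 42.7, 37.4 and 34.1 CPM in knockout replicates 1 to 5 and 29.6 to 32.4 CPM in WT. SOX4 held 285, 287, 361, 349 and 339 CPM there and 290.7 to 319.8 CPM in WT. For both genes knockout replicates 1 and 2 lay below WT and replicates 3, 4 and 5 above it. FOXO4 held 23.1 and 21.5 CPM in knockout replicates 1 and 2, inside the WT range of 20.2 to 23.4 CPM, and 16.8, 17.8 and 18.7 CPM in replicates 3, 4 and 5, below it. SOX3, FOXO3B, FOXD3 and FOXA3 were the 4 with the smaller spread in the knockout.

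**Figure D4:**
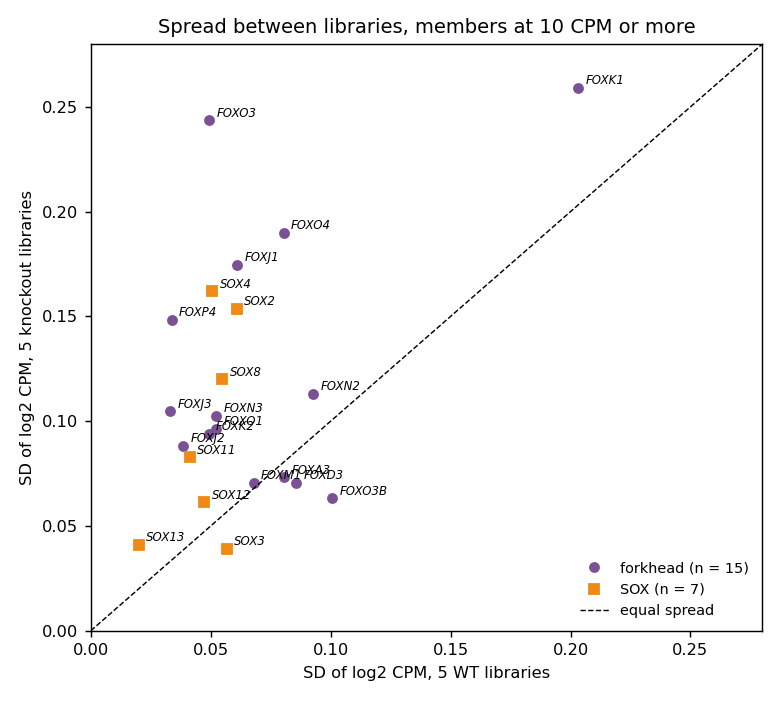
SD of log2 CPM between the 5 WT libraries (horizontal axis) and between the 5 knockout libraries (vertical axis) for the 22 tested genes at 10 CPM or more. Circles are forkhead and squares SOX genes, and the dashed line marks equal spread. Above the line lie 18 genes, with FOXO3 farthest from it, and SOX3, FOXO3B, FOXD3 and FOXA3 lie below.

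The 20 genes left out by the filter had between 0 and 14 counts in any library. They included FOXA1, FOXB2, FOXC1, FOXC2, FOXD2, FOXD4, FOXE1, FOXE3, FOXF1, FOXF2, FOXO1B, FOXP2, FOXQ1, FOXR1, FOXS1, SOX1, SOX6, SOX14 and SOX30. The highest mean was 0.25 CPM, of SOX14 in WT. With 3 counts as the limit that a count of 0 sets, 0.0634 to 0.105 CPM could go unseen in a library, so a difference between groups was not detectable at this depth for genes near that level. Among them are factors of the thyroid (FOXE1), mesoderm and vessels (FOXC1, FOXC2, FOXF1) and the spermatid gene SOX30. The authors' deposited table marks 4 of the 60 as changed, namely FOXA2, FOXI2, FOXN4 and SOX15, and its adjusted p was under 0.05 for 19. The matching shares over all genes of that table are not given here, so nothing particular to the 60 is read from these counts.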

How the data were processed

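PolyA RNA of 5 knockout and 5 WT libraries was sequenced with 150 paired-end cycles, per the labels. The authors deposited raw counts per gene, used here without change. Tools in the submitters' processing notes are DESeq2 and R 3.6.3, with hg38 as the build. The aligner, annotation and strandedness were not given in the sources used here. The authors' deposited table holds a mean normalised signal, a log2 fold change with its SE, a score (the fold change over its SE), and raw and adjusted p-values. It supplied gene symbols and the values credited to it.

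Groups come from the sample titles. The test was edgeR 4.0.16 under R 4.3.3 (glmQLFTest on group, TMM, filterByExpr, Benjamini-Hochberg over 19163 genes, threshold 0.05), and the step was tested on simulated data. The simulation changed far fewer genes than were called here and gave both groups the same spread, so it does not cover these conditions. Log2 CPM uses a prior count of 2. The members, the 7 companion gene lists and the named genes were chosen with earlier results of these data known. Named with values were SOX2, SOX3 and FOXA2, called members, and the 5 highest per length in each family. Up to 4 genes with the smallest p per list were named too. CXCR4, CNMD, COL11A2, DNAH11, SESN3, CITED2, KLF6, INSR, LINC00261 and the overlapping and marker genes were named after their values were seen. Positions, overlaps and the length and GC of 1 transcript per gene come from GENCODE 29 (GRCh38, the assembly of hg38). Copies were aligned with BLAST 2.17.0. Within a group, chi-square over degrees of freedom ran from 3.59 to 26.2 between libraries, above sampling noise. Each library was counted as 1 replicate, though this spread cannot tell separate cultures from separate preparations of 1 culture. Values of some genes are not reported here. Floors cover counting error only. Alternatives were DESeq2 1.42.0 and its size factors, other filters, a replicate block, left-out libraries, and a length and GC correction (splines with 5 degrees of freedom per library).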

Additional observations from a re-analysis of the deposited data

Results flagged for a closer look

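In 3 of 80 groups of 5 libraries, over the 40 tested genes, 1 library lay far from the other 4 by Dixon's 95% criterion, where chance gives about 1 in 20. SOX8 in knockout replicate 3 stood at 15.2 CPM against 12.4 to 13.1 CPM in the other knockout libraries. SOX10 in knockout replicate 5 stood at 5.33 CPM against 3.46 to 3.98 CPM. SOX21 in WT replicate 5 stood at 0.61 CPM against 1.09 to 1.16 CPM.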

How the results depend on the processing

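Of the 18 called genes, 13 kept call and direction under every alternative that tested them (at least 1 CPM in 5 libraries leaves FOXI2, FOXN4 and SOX7 untested), and FOXA2 ran from -3.38 to -3.08. After the correction for transcript length and GC, 7 forkhead and 5 SOX genes were higher. FOXJ2 (0.01) and SOX11 (0.03) changed sign without being called. In companion lists that correction gave 3 FOXO targets lower, 5 FOXM1 targets higher and 2 lower, 0 cartilage genes higher, and 0 antisense genes higher and 2 lower. Leaving out 1 library gave 3 to 6 forkhead genes higher, 1 to 2 FOXO targets lower, 1 to 2 endoderm genes lower, 0 to 1 cartilage genes higher, and 0 to 2 antisense genes higher and 1 to 2 lower. Without both libraries numbered 3, 1 endoderm gene was lower and 2 antisense genes were higher and 2 lower. Without knockout 3, WT 2 and WT 3, 2 FOXM1 targets and 1 endoderm gene were lower, 0 cartilage genes higher and 2 antisense genes lower. DESeq2 gave 2 FOXO targets and 2 antisense genes lower. No filter gave 0 cartilage genes higher and 2 antisense genes lower. At least 1 CPM in 5 libraries gave 3 cilium genes lower, 0 cartilage genes higher and 0 antisense genes lower. Shares over all genes under these alternatives are likewise not given here, and the causes were not tested.

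Replicate numbers did not pair the samples: same-numbered libraries correlated in their deviations from the group means at 0.173, -0.157, 0.698, 0.198 and 0.176 for numbers 1 to 5, and 1 of 5 knockout libraries correlated best with its own number. With the replicate block, 7 of the 40 genes rose and 11 fell, sharing 17 of the 18 calls. The block gave 2 FOXO targets lower, 1 endoderm gene lower and 0 cartilage genes higher.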
